A study of Mus musculus with 39 samples.

Results

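Replication timing (RT) domains are stretches of a chromosome that are copied at about the same time of S phase, the part of the cell cycle in which DNA is replicated. The RT domains of R1 mouse embryonic stem (ES) cells were taken from the list that the authors deposited, on chromosomes 1 to 19 and leaving out domains that start at the first base of a chromosome. This gave 1598 domains of the 1811 in the list, since 19 first domains, 128 domains of chromosome X and 66 domains of chromosome Y were left out. The value of a domain is based on the log2 ratio of labelled DNA in the early fractions to that in the late fractions. The early fractions were S1 and S2, and the late fractions S3 and S4. The authors fitted this ratio to a target distribution by quantile normalization before they called domains. A positive value therefore need not mean more labelled DNA in the early than in the late fractions. Here a domain with a positive value was called early and a domain with a negative value late. By this sign 749 domains were early and 849 were late.

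The 8 RT libraries, of 39 in the series, were made from wild-type R1 cells. R1 is a male line from the inner cell mass of the mouse blastocyst. Nascent DNA was labelled for 2 h with BrdU, an analogue of thymidine, cells were sorted by DNA content into the fractions S1, S2, S3 and S4, and DNA pulled down with an antibody against BrdU was sequenced in 2 independent experiments. The list holds 1 value per domain and names no experiment. It gives no depth behind a domain, and the spread between experiments was not computed, since timing tracks of the experiments were not analysed here. The variation is therefore given over domains and over the 19 chromosomes, with no test. The libraries hold DNA and no RNA, so expression markers of ES cells could not be looked at in them.

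Replication starts at many origins, and origins in neighbouring stretches of chromatin tend to fire at similar times, which gives domains. In mammalian cells early replication is known to go with open, transcribed chromatin rich in genes, and late replication with compact chromatin at the nuclear lamina. Part of the genome changes its timing when ES cells differentiate, and the loci of several pluripotency genes are known to move from early to late.

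The sequence of the domains at both ends of the scale shows what the composition values below mean at the level of bases. Each line gives 200 bases of the plus strand (GRCm38, the assembly that mm10 stands for) near the middle of a domain, chosen so that the A/T content of the stretch was closest to that of the whole domain. Capitals mark CpG dinucleotides, the sites of most DNA methylation in mammals. The domains were those with the highest and the lowest value among domains of at least 1 Mb on the chromosomes other than 18.

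Early, chr19:5488401-5488600: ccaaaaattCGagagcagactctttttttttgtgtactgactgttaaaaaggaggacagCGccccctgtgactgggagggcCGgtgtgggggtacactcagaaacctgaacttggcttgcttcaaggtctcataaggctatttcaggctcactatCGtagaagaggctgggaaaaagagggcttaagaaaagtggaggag
Late, chr11:42778401-42778600: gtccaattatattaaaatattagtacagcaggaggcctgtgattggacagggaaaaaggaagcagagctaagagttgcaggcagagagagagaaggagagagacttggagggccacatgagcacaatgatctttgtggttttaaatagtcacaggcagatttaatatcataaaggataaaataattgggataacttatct

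The early stretch had 51.5% A and T and 4 CpG, and it came from the domain chr19:3200001-7800000 with a value of 1.803 and an average of 2.78 CpG in 200 bases. The late stretch had 61.0% A and T and 0 CpG, and it came from the domain chr11:42200001-43350000 with a value of −1.26 and an average of 1.08 CpG in 200 bases. The early domain held 183 protein-coding genes, 40.9 per Mb, with Macrod1 the longest. The late domain held 4 genes, 3.48 per Mb, of which the longest was Gabrb2, a subunit of the GABA-A receptor of neurons.

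The values of the domains fell into groups on either side of 0. Early domains had a median value of 0.72, with quartiles of 0.45 and 0.96, and late domains a median of −0.72, with quartiles of −0.88 and −0.49. Few domains were intermediate, since 96 of the 1598 had a value less than 0.25 away from 0. Domains were called from runs of 50 kb windows of the same sign, so the calling itself keeps out values near 0. The scale reached further on the early side, but this reach depends on the quantile normalization. The highest value was 1.803 and the lowest −1.27, and 168 early domains lay above 1 while 80 late domains lay below −1.

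The domains with the highest values were chr19:3200001-7800000 with 1.803, chr10:126650001-129200000 with 1.79, chr11:93600001-99400000 with 1.76, chr4:131600001-142500000 with 1.76 and chr7:18600001-20150000 with 1.76. They held between 68 and 209 protein-coding genes each. The lowest values belonged to chr18:40450001-41950000 with −1.27, chr11:42200001-43350000 with −1.26, chr3:127850001-129100000 with −1.22, chr7:68500001-70150000 with −1.21 and chr3:142900001-144200000 with −1.20. These held at most 4 genes, and 2 of them held none. Beside the threshold of 0, the early domain of lowest value was chr17:72850001-73200000 with 0.07 and the late domain of highest value chr10:86200001-86550000 with −0.04. Both measured 350 kb. The next in order were chr6:3250001-3750000 with 0.09 and chr2:86150001-86500000 with 0.10 on the early side, and chr9:47900001-48250000 with −0.09 and chr16:49850001-50200000 with −0.11 on the late side.

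**Figure D1:**
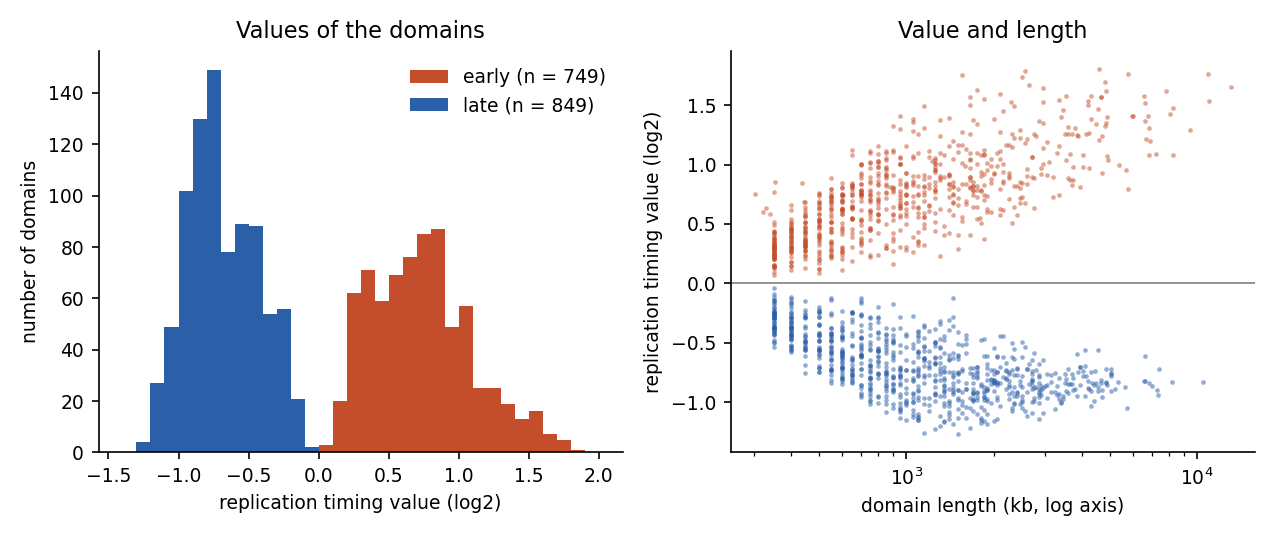
The left plot counts domains by replication timing value (log2) in steps of 0.1, and the right plot gives the value of each domain (log2) against its length (kb, log axis), with 749 early domains in red and 849 late domains in blue. Few domains lie near 0. With length, on the quantile-normalized scale, the early values keep rising while the late values level off.

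Late domains had the longer median length, by less than the spread between chromosomes. The median length was 900 kb for early domains (quartiles 550 and 1650 kb) and 1050 kb for late domains (quartiles 600 and 1850 kb). Within chromosomes the early median was lower on 14 of 19, higher on 4 and equal on 1, with a difference of −147 ± 237 kb (SD, n = 19 chromosomes). With neighbours of the same kind joined across gaps of at most 200 kb the difference of the medians was −350 kb, and with early and late parted at the value that unassembled sequence has in the list it was 0 kb, against −150 kb. Early domains covered 1054 Mb and late domains 1245 Mb, so that 45.9% of the domain length was early. The shortest domain, at the end of chromosome 8, measured 301 kb. The longest early domain, chr17:23300001-36350000, measured 13050 kb and was also the early domain with most genes, 432. The next were chr15:75450001-86450000 with 11000 kb and chr4:131600001-142500000 with 10900 kb. The longest late domains were chr4:63650001-74100000 with 10450 kb and 27 genes, chr14:106100001-114300000 with 8200 kb and 5 genes, and chr16:65200001-72600000 with 7400 kb and 7 genes.

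The value went with length inside each kind. Across early domains Spearman's rho of value and length was 0.74 (n = 749), and across late domains it was −0.62 (n = 849), so that longer domains of either kind had values further from 0. Each sign was the same on all 19 chromosomes. Over both kinds together rho was −0.08 (n = 1598), and Pearson's r had the other sign, 0.06. All domains come from 1 list, made from the same libraries.

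On the quantile-normalized scale, late values reached a plateau by length class. How far this shape depends on the normalization was not tested. Early domains under 500 kb had a median value of 0.33, those of 500 to 1000 kb 0.64, those of 1000 to 2000 kb 0.82, those of 2000 to 4000 kb 1.02, and those of at least 4000 kb 1.37. The medians of late domains in the same classes were −0.37, −0.62, −0.81, −0.85 and −0.84. The lowest late values therefore did not lie in the longest late domains, and the 5 lowest were in domains of 1150 to 1650 kb.

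Early domains were lower in A/T. Their median A/T content was 56.6% of assembled bases, against 59.9% in late domains. The difference within chromosomes was −3.27 ± 0.68 percentage points (SD, n = 19) and was negative on all 19, from −4.18 on chromosome 7 to −2.16 on chromosome 14. The gradient continued inside each kind. Spearman's rho of value and A/T content was −0.65 over all domains (n = 1598), −0.55 over early domains (n = 749) and −0.40 over late domains (n = 849). The median fell from 60.6% in the lowest decile of the domains by value to 54.5% in the highest.

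CpG dinucleotides followed the same order. Early domains had a median of 10.08 CpG per kb and late domains 6.46, with a difference of 3.64 ± 0.56 per kb (SD, n = 19 chromosomes) and a higher early median on all 19. The ratio of observed to expected CpG, which takes the content of C and G into account, was 0.213 in early and 0.162 in late domains as medians. Spearman's rho of value and CpG per kb was 0.70 (n = 1598). The soft-masked share of the sequence, which marks interspersed and simple repeats, was 29.8% in early and 34.5% in late domains. It was lower in early domains on all 19 chromosomes, with a difference of −4.91 ± 2.05 percentage points (SD), and its rho with the value was −0.28.

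**Figure D2:**
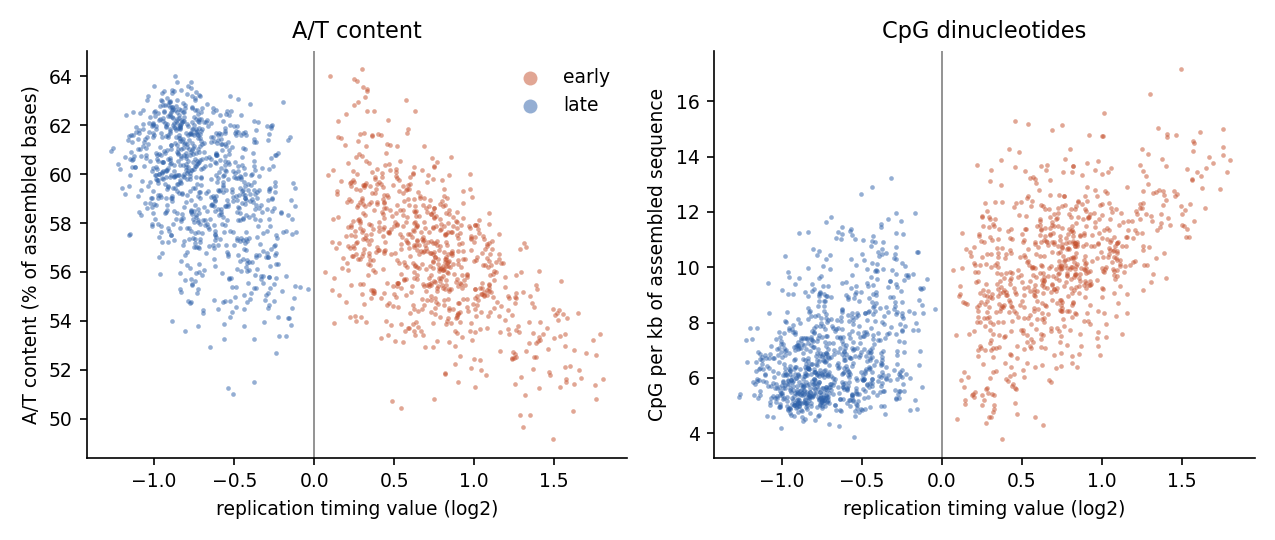
Each point is a domain, placed by its replication timing value (log2) and by its A/T content (left, % of assembled bases) or its CpG number per kb (right), with early domains in red and late domains in blue. A/T content falls and CpG rises with the value, and the kinds overlap in both measures.

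The composition of the kinds overlapped. Of the early domains, 68 (9.08%) had an A/T content above the late median, and of the late domains, 111 (13.1%) lay below the early median. The A/T-rich early domains were short, with a median of 450 kb, had a median value of 0.38 and held 7.09 genes per Mb. Of their 254 genes, 59 were olfactory or vomeronasal receptors, and 13 of the 68 domains held no gene start. The A/T-poor late domains had a median length of 600 kb and a median value of −0.44, and held 3.27 genes per Mb. Of their 268 genes, 5 were such receptors, and 23 of these 111 domains held no gene start. Their CpG content of 9.73 per kb was above the 6.01 per kb of the A/T-rich early domains, and their repeat share of 23.8% was below the 40.4% of those domains.

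Protein-coding genes were counted by the annotated start of the gene. Of the 19954 genes that start in the domains, 15551 (77.9%) started in early domains and 4403 in late domains. This was 14.8 genes per Mb of early and 3.54 genes per Mb of late sequence. Early density was higher on all 19 chromosomes, by 11.1 ± 2.3 genes per Mb (SD), from 7.20 on chromosome 6 to 16.04 on chromosome 17. The span of protein-coding genes covered 55.2% of early and 29.5% of late domain length. Domains with no gene start made up 2.94% of early domains (22) and 15.5% of late domains (132). The longest of these, chr18:26650001-30250000, was late with a value of −0.92 and measured 3600 kb.

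Gene density rose with the value, except from decile 4 (5.40 genes per Mb) to decile 5 (5.37). It was 2.33 genes per Mb in the lowest decile of the domains and 20.5 in the highest. Deciles hold similar numbers of domains but not equal lengths. The highest decile covered 475 of 2299 Mb and held 9714 of the 19954 genes. Spearman's rho of value and genes per Mb was 0.64 over all domains (n = 1598), 0.51 over early domains (n = 749) and 0.21 over late domains (n = 849). In late domains density fell with length, from 5.19 genes per Mb under 500 kb to 1.90 in domains of at least 4000 kb. In early domains it rose from 9.33 to 20.5 over the same classes.

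Within classes of A/T content early domains also had the higher gene density. The domains were divided into 5 strata of equal number by A/T content. In the stratum of lowest A/T content, 258 early domains held 18.3 genes per Mb and 62 late domains 3.26. In the middle stratum the densities were 10.49 and 4.67, and in the stratum of highest A/T content they were 6.38 in 34 early and 2.81 in 286 late domains. The early density was the higher in all 5 strata, each of which spans a range of A/T content, 49.2% to 55.5% in the first. The share of domains with no gene start was lower for early domains in the other strata, but in the stratum of highest A/T content it was 38.2% of early and 15.7% of late domains. Late density changed little over the strata, between 2.81 and 4.67, while early density fell by stratum.

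**Figure D3:**
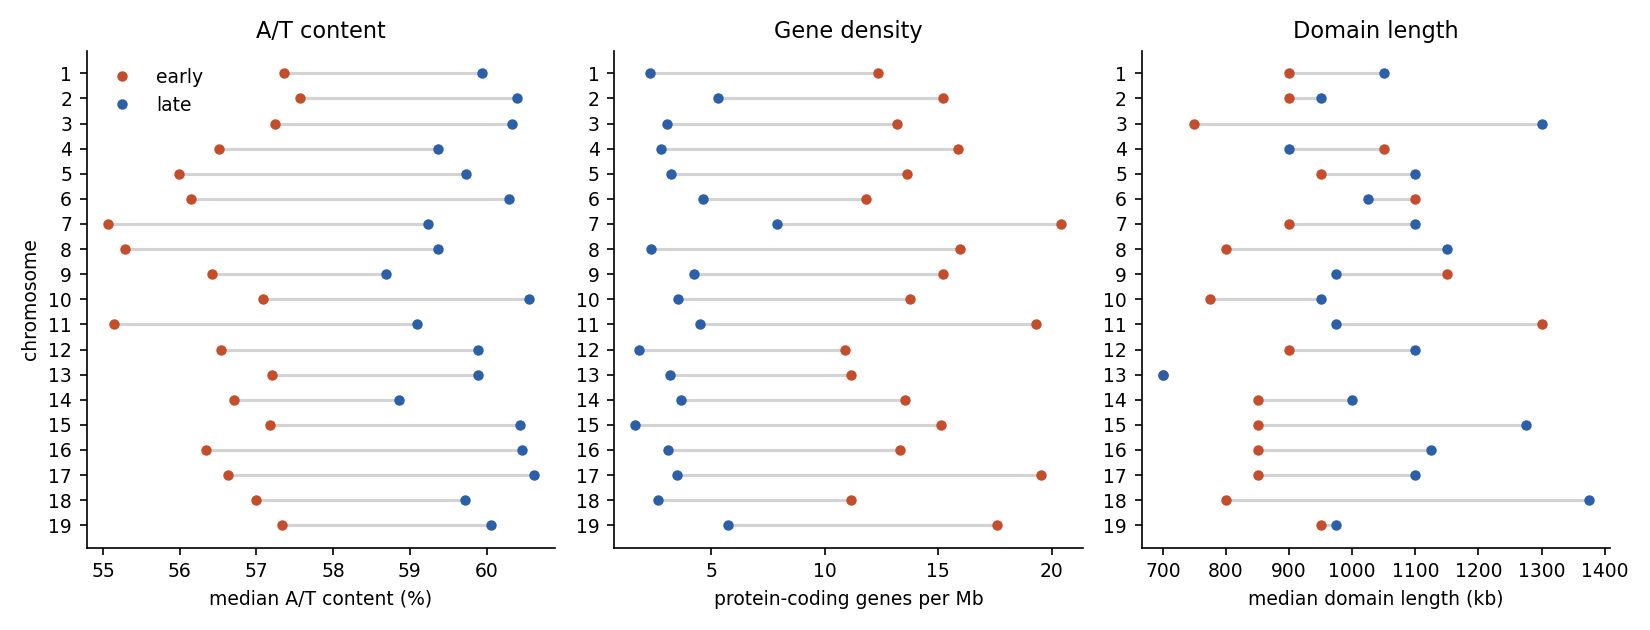
Each line is a chromosome, with the early domains in red and the late domains in blue, and the plots give the median A/T content (%), the number of protein-coding genes per Mb and the median domain length (kb). Early and late points are on the same side of each other on all 19 chromosomes for A/T content and gene density, and change sides for length.

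The promoters of early and late genes differed too. Promoters of genes with housekeeping or developmental roles often lie in CpG islands, stretches where CpG is not depleted, while many tissue-specific genes have promoters poor in CpG, some with a TATA box. Windows from 250 bases before to 50 after the gene start (RefSeq, GRCm38.p6) were matched by symbol for 15053 of the 19954 genes. Promoters of chromosome 18 were not analysed here. The ratio of observed to expected CpG was above 0.6 for 58.9% of 11806 early and 23.7% of 3247 late promoters, against 51.3% of all. Without olfactory and vomeronasal receptor genes the shares were 60.3% and 32.4%, and the early share was higher on all 18 chromosomes with promoters, by 28.1 ± 10.2 percentage points (SD).

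The promoter share changed near the sign of the value and not along the scale. Without the receptor genes, the 5 lowest deciles of the domains had between 28.6% and 36.2% CpG-rich promoters. The next decile, which held 110 early and 50 late domains, had 53.0%, and the 4 highest had between 59.5% and 63.7%. With the receptor genes included, 5.99% of early and 17.8% of late promoter windows held the letters TATAAA on the strand of the gene. The share of all windows was 8.54%. On either strand the letters were present in 9.30% of early and 25.7% of late windows. These late windows were also richer in A and T, with a median of 54.0% against 41.0% in early windows. The part of this in the matches was not tested. Without the receptor genes, 5.66% of early and 14.9% of late windows held TATAAA on the strand of the gene. The letters overlap with no other motif searched, and a match is not evidence of a working TATA box.

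**Figure D4:**
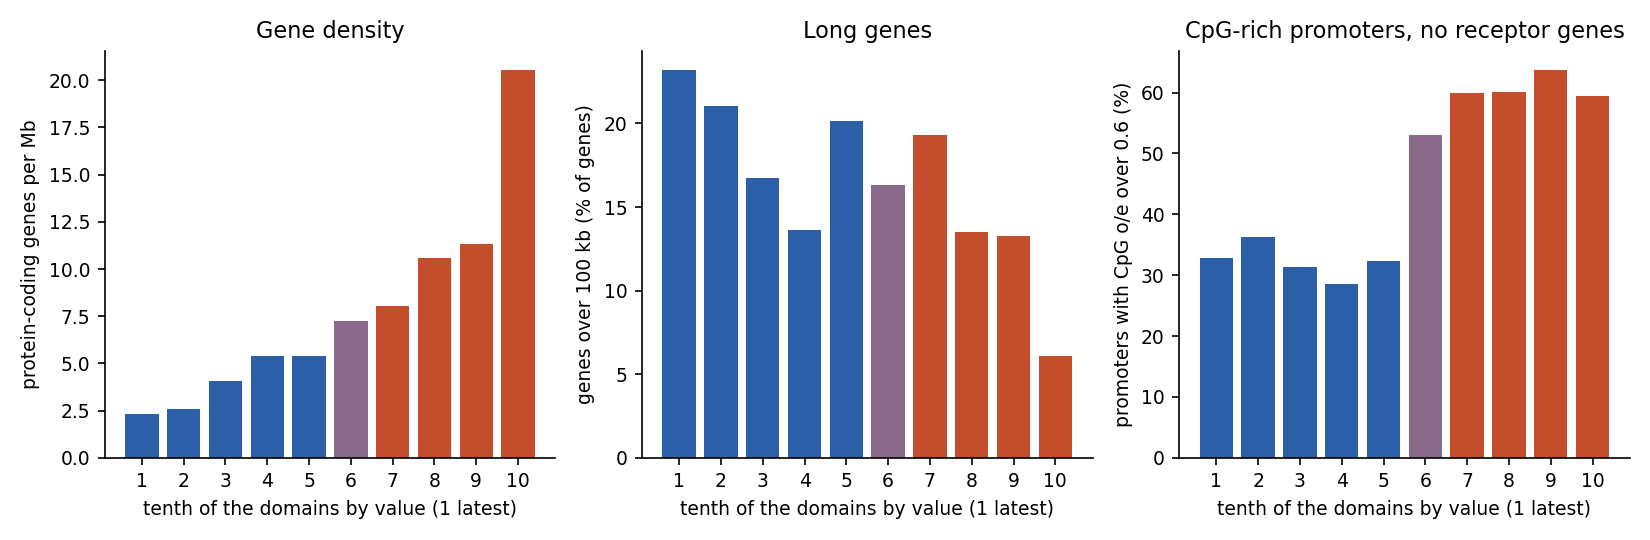
Domains are placed in 10 groups of 159 or 160 by replication timing value, from the latest (1) to the earliest (10), with bars in blue for groups of late domains, red for early domains and purple for the group that holds both. The bars give protein-coding genes per Mb, the share of genes over 100 kb, and the share of promoters with a CpG ratio over 0.6 without receptor genes. Density rises from 2.33 to 20.5, and the promoter share steps up between the groups 5 and 7.

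Promoters of 4 genes show the range, with CpG in capitals and the gene strand read 5′ to 3′ (GRCm38.p6, 300 bases each). Gapdh codes for a glycolytic enzyme and lay in an early domain of value 1.56 (chr6:125165724-125166023, minus strand). Pou5f1 codes for the pluripotency factor Oct4 and lay in an early domain of value 1.65 (chr17:35505782-35506081, plus strand). Lsamp codes for a cell adhesion protein of neurons and lay in a late domain of value −0.999 (chr16:39984114-39984413, plus strand). Hbb-bt codes for an adult beta-globin and lay in a late domain of value −0.75 (chr7:103813874-103814173, minus strand).

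Gapdh: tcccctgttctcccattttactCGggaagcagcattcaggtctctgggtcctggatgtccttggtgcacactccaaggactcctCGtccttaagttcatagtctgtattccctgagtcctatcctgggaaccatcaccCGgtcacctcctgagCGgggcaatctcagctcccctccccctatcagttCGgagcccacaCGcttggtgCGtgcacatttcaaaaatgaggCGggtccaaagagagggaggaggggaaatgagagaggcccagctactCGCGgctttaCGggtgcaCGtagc
Pou5f1: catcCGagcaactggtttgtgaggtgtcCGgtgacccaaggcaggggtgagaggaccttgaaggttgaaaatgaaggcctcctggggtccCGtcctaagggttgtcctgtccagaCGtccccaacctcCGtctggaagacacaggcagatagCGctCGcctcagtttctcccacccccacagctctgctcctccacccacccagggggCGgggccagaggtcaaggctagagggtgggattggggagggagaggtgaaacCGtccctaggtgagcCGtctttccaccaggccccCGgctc
Lsamp: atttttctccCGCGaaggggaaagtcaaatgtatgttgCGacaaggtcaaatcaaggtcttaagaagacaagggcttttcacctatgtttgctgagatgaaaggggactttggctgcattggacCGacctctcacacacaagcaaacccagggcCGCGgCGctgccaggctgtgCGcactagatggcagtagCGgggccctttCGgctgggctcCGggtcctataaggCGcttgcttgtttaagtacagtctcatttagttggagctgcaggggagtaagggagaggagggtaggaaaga
Hbb-bt: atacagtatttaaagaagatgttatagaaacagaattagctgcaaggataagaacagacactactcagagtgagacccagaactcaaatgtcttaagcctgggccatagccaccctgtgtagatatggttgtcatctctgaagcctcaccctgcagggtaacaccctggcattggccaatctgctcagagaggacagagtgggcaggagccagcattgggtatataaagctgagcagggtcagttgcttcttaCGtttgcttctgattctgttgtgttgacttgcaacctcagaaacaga

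These windows held 12, 11, 12 and 1 CpG in the order printed. The late Lsamp promoter thus had as many CpG as the early Gapdh promoter, and the Hbb-bt window was the one of the 4 with TATAAA. Their ratios of observed to expected CpG were 0.50, 0.37, 0.59 and 0.06, so that none passed 0.6.

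Gene length gave an answer that depended on 3 gene families. The median span of a protein-coding gene was 18.4 kb in early domains (quartiles 7.55 and 43.6 kb, n = 15551) and 13.2 kb in late domains (quartiles 5.20 and 58.8 kb, n = 4403). The early median was the higher on 13 chromosomes and the lower on 6, with a difference of −1.43 ± 21.5 kb (SD, n = 19). Chromosome 15, where the late median was 101 kb, decided the sign of this mean, which was 3.19 ± 7.66 kb over the other 18 chromosomes. Olfactory receptors (Olfr) and vomeronasal receptors (Vmn1r, Vmn2r) made up 1043 of the late genes (23.7%) and 324 of the early genes (2.08%). Without them the order turned, with a median of 18.97 kb in early and 24.1 kb in late domains. The early median was then lower on 11 chromosomes and higher on 8, with a difference of −9.03 ± 21.2 kb (SD, n = 19), or −4.86 ± 11.3 kb without chromosome 15. The difference was smaller than its spread with and without the receptors.

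The upper end of the distribution differed more than the median. Genes over 100 kb made up 9.25% of early and 18.4% of late genes. Genes over 500 kb numbered 61 in early and 148 in late domains, which was 0.39% and 3.36%. Late genes were also more often very short, since without the receptors 11.6% of late and 5.23% of early genes were under 2 kb. Within early domains gene length fell with the value (rho −0.23, n = 15551 genes), and it did so on all 19 chromosomes. The highest decile of the domains had a median gene length of 15.0 kb, and the deciles 7 to 9 had 25.6 to 35.2 kb. Genes of 1 domain share its value and are not independent.

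A gene counted by its start can run out of its domain. This was so for 599 genes (3.00%), with a median length of 180 kb, and for 110 of the 209 genes over 500 kb. Of these very long genes, 181 had more than 50% of their span within domains in late ones and 9 lay wholly in early domains. A further 6 touched no late domain but ran partly through sequence in no domain. Among the 61 that started in early domains, 37 had more than 50% of their span in late domains. Dlg2, a scaffold protein of synapses, started in an early domain of value 0.80, and 86.1% of its span within domains was late. Ctnna3, an alpha-catenin, started in an early domain of value 1.34, and 82.7% of its span within domains was late.

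The longest annotated genes were mostly late. The longest, Gm20388 with 4435 kb, lay in an early domain. Fgfr2, a fibroblast growth factor receptor annotated with 2961 kb, started in an early domain, and 16.9% of its span within domains was late. In RefSeq Fgfr2 measured 104 kb and Gm20388 had no entry that matched, so these spans depend on the annotation. Of the next 8, Ptprd (2271 kb), Cntnap2 (2245 kb), Lsamp (2197 kb), Lrp1b (2058 kb), Macrod2 (1998 kb), Csmd1 (1643 kb) and Nrxn3 (1612 kb) started in late domains with values from −0.999 to −0.76, and Dlg2 (1973 kb) in an early domain. RefSeq gave these 8 genes lengths within 4 kb of the GENCODE lengths.

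Lists of genes are described by their counts, beside the 77.9% of all genes that started in early domains. All 13 housekeeping genes that started in the domains, of 15 in the list, were early, with values from 0.78 to 1.65. They included Actb (1.26), Gapdh (1.56), Polr2a (1.40), the largest subunit of RNA polymerase II, and Sdha (0.78), a mitochondrial enzyme. Cytosolic ribosomal protein genes were early in 90 of 93 cases. Zinc finger genes (Zfp) were early in 338 of 360 cases, and keratin genes (Krt) in 44 of 49 cases within 5 domains.

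All 20 pluripotency genes were early, in 18 domains, with a median value of 1.16. Lin28a, an RNA-binding protein, had the highest value, 1.76, followed by Pou5f1 with 1.65. Nanog and Dppa3 shared a domain of 1050 kb with a value of 1.28. Sox2 lay in an early domain of value 0.72 between late neighbours of −0.88 and −0.35, and Klf4 in one of 0.83 between late neighbours of −0.60 and −0.92, which held no gene start.

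Loci known to change their timing on differentiation fell on both sides of 0. Dppa2 and Dppa4, which code for chromatin proteins of early embryos, shared an early domain of 750 kb (chr16:48100001-48850000) with a value of 0.69 and an A/T content of 59.0%. It lay between late domains of −0.89 and −0.78. Zfp42, which codes for the ES cell factor Rex1, lay in an early domain of 650 kb (chr8:42950001-43600000) with a value of 0.80 and an A/T content of 59.8%, between late domains of −1.03 and −0.82. Of the early domains, 16.2% had a higher A/T content than that of Dppa2 and 9.75% a higher one than that of Zfp42. Ptn, a growth factor, was late with −1.02 (chr6:35500001-37050000) between early domains of 0.74 and 1.14. The series holds ES cells alone for this assay, so a change of timing was not measured.

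Globin genes, which are used in red blood cells, were split between the kinds. All 5 beta-like genes lay in 1 late domain (chr7:102650001-104100000) with a value of −0.75 and an A/T content of 61.6%, where 80 of 89 genes were olfactory or vomeronasal receptors. The 5 alpha-like genes lay in 1 early domain (chr11:31650001-33900000) with a value of 0.90 and an A/T content of 54.7%. Each cluster is a single domain and counts as 1 value.

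The receptor families were mostly late. Of the Olfr genes 269 of 1062 (25.3%) were early, of the Vmn1r genes 30 of 192 (15.6%), and of the Vmn2r genes 25 of 113 (22.1%). These genes lay in 77, 23 and 26 domains, and genes of 1 domain share its value. The late domain with most genes, chr2:87750001-90400000, held 118 genes, of which 115 were receptors, and had a value of −0.85. The early domain chr2:86150001-86500000, whose value of 0.10 was among the 3 nearest to 0 on the early side, held 22 genes, all of them receptors. Beta-defensin genes (Defb), small antimicrobial peptides, were early in 24 of 40 cases within 5 domains.

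A list of 20 large genes was chosen as genes of neurons, and the use of each in neurons was not checked here. All 20 were over 500 kb, a length at which 148 of 209 genes started in late domains. A part of neuronal use apart from gene length was not tested. Of the 20, 18 started in late domains, each gene in a domain of its own. Their values ran from −1.10 for Nlgn1, a neuroligin of synapses, to −0.43 for Magi2, a synaptic scaffold, and the exceptions were Dlg2 and Ctnna3. The median A/T content of the 20 domains was 61.7%. Cdh13, a cadherin, was late with −0.49 in a domain with an A/T content of 54.6%, and Dab1, an adaptor of reelin signalling, was late with −0.75 in a domain with 57.004%.

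Early and late domains mostly followed each other. Where domains touch this is fixed by the calling, since touching domains of the same kind would be 1 domain. The same holds for the neighbours of Sox2, Klf4, Dppa2, Zfp42 and Ptn given above, which all touch. Of 1579 pairs of neighbours, 1216 (77.0%) were of opposite kind, and 1167 of these touched. The other pairs were 128 of early and 235 of late domains, separated by a gap with no domain with a median of 200 kb and a range from 50 to 950 kb. Between touching neighbours of opposite kind the value changed by a median of 1.39, with quartiles of 1.11 and 1.69. The largest step, 2.65, was between chr19:3200001-7800000 (1.803) and chr19:7800001-8400000 (−0.85). The distance from 0 of a domain was hardly related to that of its touching neighbour (rho −0.03, n = 1167 pairs).

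Chromosomes differed in how much of their domain length was early, with 46.3 ± 7.4% (SD, n = 19). The share was lowest on chromosome 3 with 33.3% and highest on chromosome 11 with 63.1%. Across the 19 chromosomes the early share went with A/T content (rho −0.90) and with genes per Mb (rho 0.82), given here as a description since all points come from the same libraries and composition and density go together.

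Early domains took a larger share near the distal end. Mouse chromosomes have their centromere near the first base of the assembly, so that position runs from the centromere to the distal telomere. The early share of domain length was 34.2% in the first 10% of the chromosomes and 60.9% in the last 10%, with 37.1 ± 19.2% and 59.7 ± 20.1% over the chromosomes (SD, n = 19). In between it ran from 41.0% to 54.0% with no steady rise. The distal part, the outer 50% of each chromosome, was 49.6% early and the proximal part 41.9%, a difference of 7.70 percentage points. The first domains, all positive and some partly assembled, were left out, which can only lower the early share at the centromeric end. With first domains and chromosomes X and Y included, the difference was 6.18 percentage points. Over chromosomes, without first domains, it was 5.89 ± 18.4 percentage points (SD, n = 19). This was smaller than its spread, with 12 chromosomes positive and 7 negative.

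**Figure D5:**
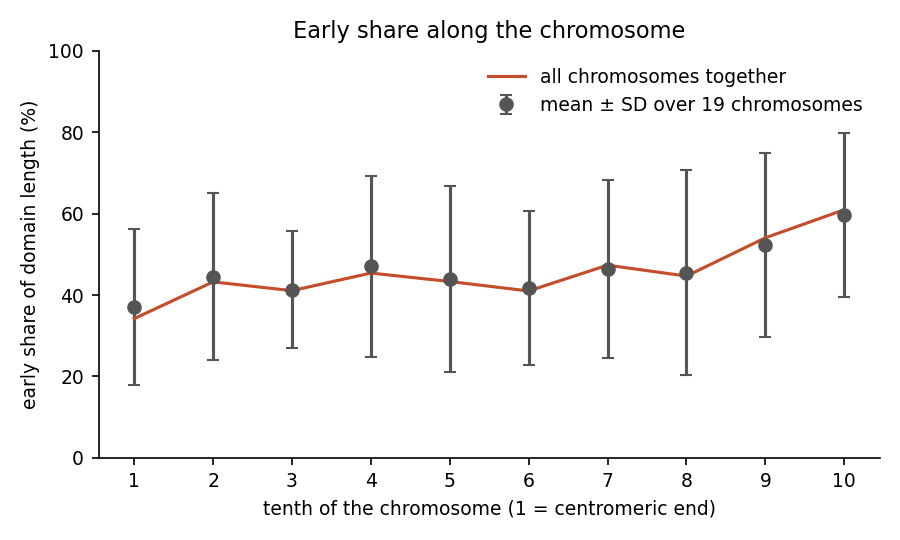
The early share of domain length (%) is given for 10 equal parts of each chromosome, from the centromeric end (1) to the distal end (10), as points for the mean with bars for the SD over 19 chromosomes and as a line for all chromosomes together. The line starts at 34.2% and ends at 60.9%, and the bars of neighbouring parts overlap.

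The last domain was early on 18 of 19 chromosomes, with values between 0.55 and 1.62, and late on chromosome 14 with −0.55. These 18 domains ended at the last base of the chromosome, which is unassembled in GRCm38. In 7 of them, which measured 301 to 445 kb, 22.5% to 33.2% of the length was unassembled. These 7 had values from 0.58 to 0.86 and an A/T content from 59.9% to 62.6%, above the median of early domains. Without the last domains and the domains with more than 5% of unassembled bases, the early share of the last 10% was 53.3%, against 44.1% in the rest of the chromosomes. Over the chromosomes it was 52.2 ± 19.04% (SD, n = 19).

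Unassembled sequence carried a positive value in the list. Of the 19 first domains that were left out, 11 had over 99% of unassembled bases, and all 11 had a value of 0.28 or 0.29, on the early side of 0. Among the early domains, 75 had a value below the highest of these, and they covered 36.8 Mb or 3.49% of the early length. Among all 1598 domains 749 were early. Of the 41 domains with more than 5% of unassembled bases 27 were early, and 15 of the 41 were the last of their chromosome. The part of unassembled windows in the values of the last domains was not tested.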

How the data were processed

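RT was measured by sequencing BrdU-labelled DNA of the fractions S1 to S4 of R1 cells, 8 libraries in 2 independent experiments. The authors trimmed reads with cutadapt 4.3, aligned them to mm10 with Bowtie2 2.5.1, marked duplicates with picard, kept mapping quality of at least 10 with samtools, obtained fragment numbers per 50 kb window, brought every library to the same total, took log2((S1+S2)/(S3+S4)), quantile-normalized it and called domains with FindHiCCompartments of HOMER. The value used here is the log2 value that the authors deposited for each domain. How it was made from the windows and whether the experiments were pooled is not given in the sources used here. The series' other list, of wrapping domains, was not used here, and the number of columns used was 1.

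Length, A/T, CpG, soft-masked and unassembled bases were counted on GRCm38.p6, in which every domain lies inside its chromosome. Genes were protein-coding genes of GENCODE M21, placed by their start. Of 20807 on chromosomes 1 to 19, 853 start in no domain used. Densities are per Mb of assembled bases. Medians, Spearman's rho and means ± SD over 19 chromosomes are descriptions, since the list used here separates no replicates. Named domains were the 5 highest and 5 lowest values, the 3 longest of each kind, those with most genes or the longest with none, the 3 nearest 0 on each side, and the largest step between neighbours. Named genes were list members, the longest genes of named domains and the 10 longest of all. A member of the list of loci known to change their timing is not reported here. Members, lists and rules were chosen with earlier results of these data known. Scripts were tested on simulated data. Calculations used Python 3.11.15, numpy 2.4.6, pandas 2.3.3, scipy 1.17.1 and matplotlib 3.10.9.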

Additional observations from a re-analysis of the deposited data

How the results depend on the processing

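For 13 results, 98 values were computed under alternatives. Of these, 91 stayed within the SD over the 19 chromosomes (numbers of domains within 1.5 times), 4 moved further and 3 changed sign. This SD was larger than the result itself for median domain length, median gene length and the distal minus proximal early share. It was also larger for the rho of value and domain length and the rho of gene length and domain value. For these results, staying within the SD is a weak check. The alternatives were domains of at least 500 kb, and values at least 0.25 away from 0. Neighbours of the same kind were also joined across gaps of at most 200 kb. Another alternative included chromosomes X and Y and those first domains that hold assembled bases. A further one left out domains with over 5% of unassembled bases. The others were unmasked bases, other gene sets or whole gene spans, Pearson's r and the outer 25% at each end of the chromosome. Setting the sign threshold at the value of the unassembled first domains, and leaving out last domains, were chosen after seeing the data.

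The median gene length, early minus late, was 5.23 kb and became −5.15 kb without the receptor families. The rho of gene length and domain value was −0.11 and became 0.11 with all annotated genes, and the rho of value and domain length was −0.08 while Pearson's r was 0.064. These 3 directions are therefore not settled by the list. CpG per kb, early minus late, rose from 3.62 to 4.74 without soft-masked bases. Genes per Mb, early minus late, rose from 11.3 to 18.4 with all annotated genes, which follows from the larger number of genes, and the difference in domains without a gene shrank from −12.6 to −0.69 percentage points. Pearson's r of value and genes per Mb was 0.50 where rho was 0.64. With the sign threshold at the value of unassembled sequence there were 674 early and 924 late domains, and the difference in median length went from −150 to 0 kb, so that its direction is not settled either. Joining neighbours made it −350 kb. Correlations do not use the threshold and were not counted for it.

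No paired analysis was possible because the list used here holds 1 value per domain and names no experiment. The list gives no depth per domain, and the 50 kb windows limit the position of borders.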
